A study of Mus musculus with 6 samples.

Results

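The 31 genes named here are classical targets of type I interferon: RNA sensors, the transcription factors that carry the interferon signal, and antiviral effectors. They were taken by symbol, not by any measured value, from the protein-coding rows of the gene tables, and 30 of the 31 had such a row among 55450 genes. The exception, Mx2, is annotated as a polymorphic pseudogene and is described separately. RNA came from 6 tumours grown under the flank skin of C57BL/6 mice. The implanted MTE-Ras line comes from tracheal epithelium of the mouse and is cancerous through an oncogenic RAS mutation. The 3 control tumours had received PBS, and the other 3 had received PV-10, a rose bengal formulation given by injection into the lesion. Each tumour stood for its own mouse. The labels state neither dose nor interval to collection, nor the animals' age, and all 6 tumours derived from the same cell line.

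Type I interferons, IFN-alpha and IFN-beta, are secreted when cells sense foreign or misplaced nucleic acid. They bind the IFNAR1-IFNAR2 receptor, the kinases JAK1 and TYK2 phosphorylate STAT proteins, and the complex ISGF3 forms, which contains STAT2 and IRF9. ISGF3 binds the interferon-stimulated response element (ISRE) in front of target genes, where IRF7 and other interferon regulatory factors bind as well. In tumours the response can arise in cancer cells and in infiltrating immune and stromal cells, and whole-tumour RNA does not say which.

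Letters matching the core of this element stood in front of many of the genes. RefSeq promoter windows (GRCm38.p6, 250 bases before to 50 after the start) were present for 23 of the 30 genes. The core pattern GAAANNGAAA, searched on both strands (TTTCNNTTTC on the other), overlapping matches counted, occurred in the windows of 12 of those 23 genes. It occurred in 3.44% of all 32851 windows and in 3.99% of the genes that have one. A pattern match describes letters only and is not a measured binding site. The 250 bases before the start are printed for 5 genes, with every match in capitals: Isg15, Ifit1 and Ifit3, which are among the best known interferon targets, and Bst2 and Oas1a, whose PV-10 tumours all lay above the PBS tumours.
Isg15 (chr4:156200819-156201068, minus strand): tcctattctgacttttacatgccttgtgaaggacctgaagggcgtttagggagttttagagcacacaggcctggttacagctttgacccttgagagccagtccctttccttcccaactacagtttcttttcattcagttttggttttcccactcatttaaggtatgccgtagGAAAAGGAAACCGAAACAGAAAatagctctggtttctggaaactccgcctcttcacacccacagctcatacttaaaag
Ifit1 (chr19:34640639-34640888, plus strand): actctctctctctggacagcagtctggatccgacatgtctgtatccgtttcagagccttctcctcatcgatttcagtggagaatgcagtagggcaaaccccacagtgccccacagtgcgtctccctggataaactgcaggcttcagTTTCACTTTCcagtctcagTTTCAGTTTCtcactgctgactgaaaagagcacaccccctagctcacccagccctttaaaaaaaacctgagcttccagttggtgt
Ifit3 (chr19:34583279-34583528, plus strand): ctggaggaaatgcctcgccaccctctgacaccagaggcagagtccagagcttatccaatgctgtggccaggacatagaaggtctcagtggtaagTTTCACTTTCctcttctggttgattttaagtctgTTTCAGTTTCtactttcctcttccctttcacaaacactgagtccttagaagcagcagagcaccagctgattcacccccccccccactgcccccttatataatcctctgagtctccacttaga
Bst2 (chr8:71537473-71537722, minus strand): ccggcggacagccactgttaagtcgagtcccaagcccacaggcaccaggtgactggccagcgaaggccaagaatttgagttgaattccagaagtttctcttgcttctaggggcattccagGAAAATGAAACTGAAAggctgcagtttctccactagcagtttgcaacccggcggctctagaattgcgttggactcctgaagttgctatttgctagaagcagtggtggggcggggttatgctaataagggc
Oas1a (chr5:120907526-120907775, minus strand): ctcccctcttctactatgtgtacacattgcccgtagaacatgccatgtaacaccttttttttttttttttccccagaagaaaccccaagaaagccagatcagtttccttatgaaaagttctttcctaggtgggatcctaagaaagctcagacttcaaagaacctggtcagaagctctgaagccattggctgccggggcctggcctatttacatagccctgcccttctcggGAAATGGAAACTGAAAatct

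In Isg15 there were 3 overlapping matches, beginning 78, 72 and 66 bases before the start. Bst2 and Oas1a each held a pair of overlapping matches, beginning 130 and 124 bases before the start in Bst2 and 20 and 14 bases in Oas1a. Ifit1 and Ifit3, both in the Ifit cluster on chromosome 19, each carried the same pair of ten-letter matches on the other strand, at 104 and 85 bases in Ifit1 and at 156 and 122 bases in Ifit3. The other genes with a match were Ifit3b, Ifih1, Ddx58, Oas3, Stat2, Rsad2 and Eif2ak2. The 12 genes with a match had log2 changes with PV-10 from -0.69 to 0.85 (median 0.05, 7 positive), and the 11 genes without one from -0.64 to 0.90 (median -0.39, 2 positive). This split was not tested.

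Gene counts per library totalled between 87386266 and 98717951 after PBS, and 60082066, 36730318 and 94203331 for PV-10 tumours 1, 2 and 3. PV-10 tumour 3 stood apart from its group: its log2 CPM, counts scaled to sequencing depth, correlated with PBS tumours at 0.909 to 0.930 and with PV-10 tumours 1 and 2 at 0.874 and 0.822. Libraries also differed in how level related to transcript length, with log2 CPM slopes, for each doubling of length, of 0.174 to 0.212 after PBS and -0.288, -0.253 and -0.0373 in PV-10 tumours 1, 2 and 3. Of 1464 odour and pheromone receptor genes, which tumour tissue is not known to use, 11.9% to 23.2% had at least 1 count in PBS tumours and 90.3%, 66.8% and 27.1% in PV-10 tumours 1, 2 and 3. Among epithelial markers Krt8 and Krt18 were abundant, at 235 to 394 CPM after PBS, whereas Epcam was at 0 to 0.367 CPM there and Krt5 at 0 to 0.546 CPM.

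All 30 genes were detected in every tumour, and all 30 were abundant enough to be tested. On the length-scaled TPM scale, Bst2 had the highest mean over the 6 tumours at 56.5 TPM, above 98.2% of all genes in the table. Rtp4 followed at 20.2 TPM, Oasl2 at 13.8 TPM, Xaf1 at 11.4 TPM and Trim25 at 10.6 TPM. At the low end stood Oas3 at 0.777 TPM and Ifit3b at 0.668 TPM. Ifit1, Ifit2 and Ifit3 lay close together, at 3.48, 3.27 and 3.49 TPM, with ranges over tumours that overlap.

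No interferon-stimulated gene passed the test for a difference between PV-10 and PBS tumours (0 of 30, edgeR quasi-likelihood test, adjusted p under 0.05). Among all 22056 genes tested, 699 were higher (3.17%) and 423 lower (1.92%). The smallest edgeR adjusted p of any gene was 0.0443, so every call lay just under the threshold. These calls do not show that changes of the size seen in the 30 genes could have been called. At an unadjusted p under 0.05 there were 2 of the 30 genes, Bst2 and Rtp4, against 30.0% of all genes. The log2 change was positive for 13 genes and negative for 17, ran from -0.69 (Oas3) to 0.90 (Ifi44), and had a median of -0.16. The same median was 0.30 over all tested genes and 0.06 over the 16153 tested protein-coding genes. DESeq2 called 3 of the 30 genes higher (14.6% of 38967 genes were higher and 5.83% lower). They were Bst2 (log2 change 0.93, DESeq2 adjusted p = 0.0108), Parp9 (0.63, adjusted p = 0.0435) and Rtp4 (0.85, adjusted p = 0.049). On log2(TPM + 1) limma called 5 lower and 0 higher (39.1% of 12511 genes were lower and 1.82% higher), so that the direction of the calls turned with the scale. They were Stat2, Irf9, Ifi35, Trim25 and Parp14, and the same 5 were called lower on log2(TPM + 0.1) (37.1% of genes lower and 1.71% higher). Bst2 was the 1 gene of the 30 that edgeR called higher with genes kept at a mean count of at least 50 (10.1% of genes higher, 7.04% lower) and with protein-coding genes alone (9.58% higher, 7.77% lower).

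Leaving out PV-10 tumour 3 made edgeR call 7 of the 30 genes lower, as described with those genes. In each of the remaining edgeR settings 0 of the 30 were called. These were DESeq2's size factors (6.57% of genes higher, 4.86% lower), library size alone (4.44% and 6.62%), no low-count filter (5.2% and 6.7%) and a block for the replicate number (4.78% and 8.24%). Few genes of any kind were called with the length trend removed (0.00453% higher), with length and GC trends removed (0.00907% higher), or without PBS tumour 1 (0.00356% higher), PBS tumour 2 (0.00361% higher and lower), PBS tumour 3 (0.00357% higher), PV-10 tumour 1 (0.00879% higher) or PV-10 tumour 2 (0.021% higher).

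**Figure D1:**
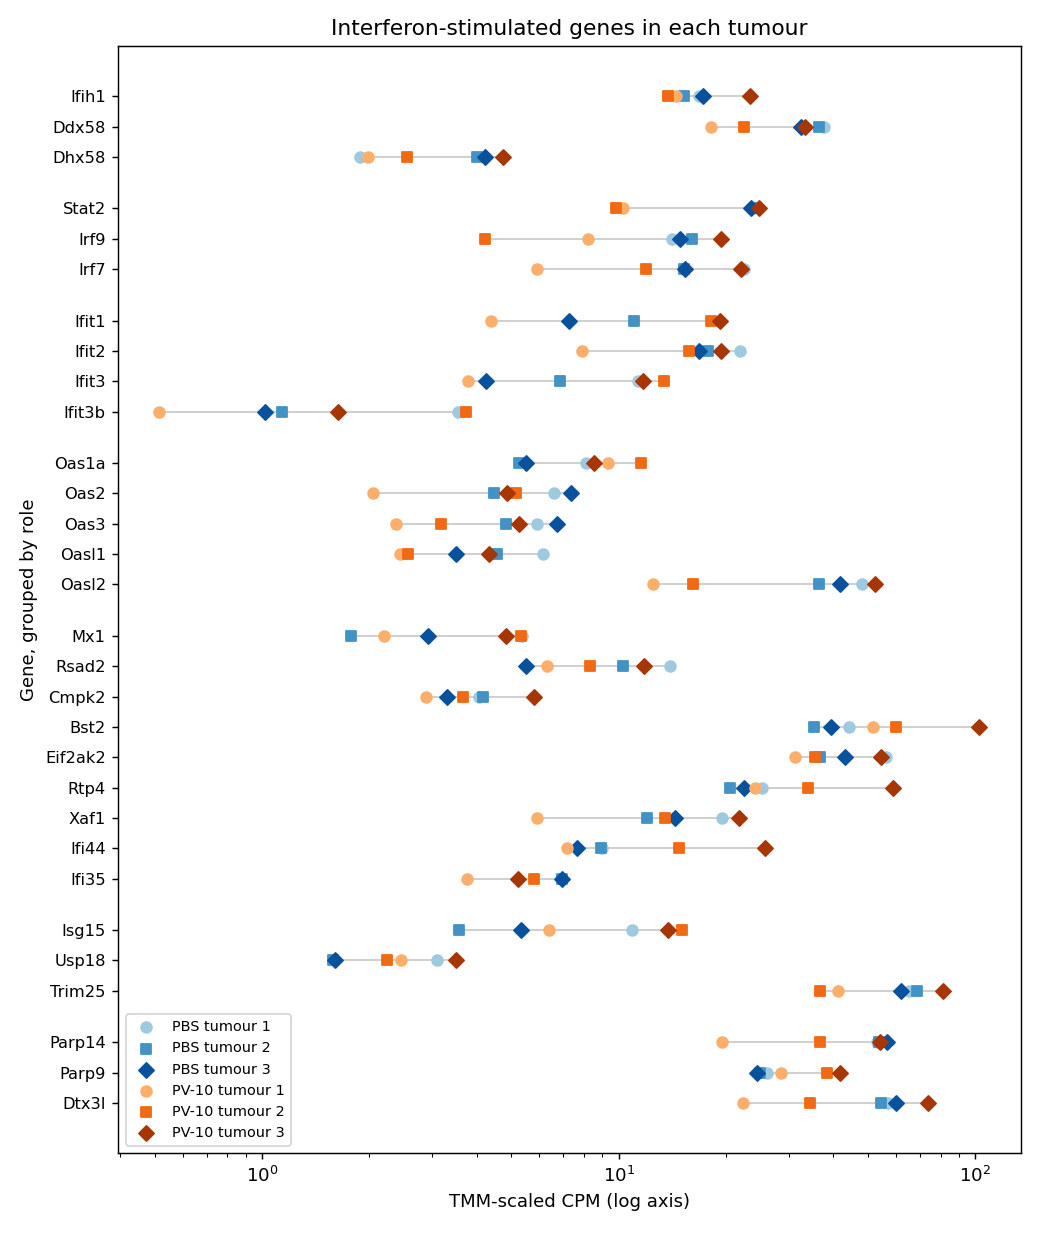
TMM-scaled CPM (log axis) of the 30 interferon-stimulated genes, grouped by role, with 1 point per tumour (blue, PBS; orange, PV-10) and a grey line over the range. PV-10 tumour 1 is the lowest of the 6 tumours for 17 genes and PV-10 tumour 3 the highest for 15.

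The PV-10 tumours differed more among themselves than the PBS tumours did. CPM values below are scaled by TMM (trimmed mean of M-values), so that they compare tumours for 1 gene and not genes with each other. Across the 3 PBS tumours the highest value was 1.35 times the lowest in the median gene, and across the 3 PV-10 tumours 2.40 times. For 9144 protein-coding genes within the same range of mean CPM the medians were 1.40 and 1.83 times. Genes in general thus also spread more after PV-10, but by less than the 30 genes did. The widest ratio in both groups was that of Ifit3b, 3.47 in PBS and 7.21 in PV-10 tumours. In PV-10 tumour 1, 21 of the 30 genes lay below all 3 PBS tumours and 3 above, beside 33.0% and 47.8% of all tested genes. In PV-10 tumour 2, 14 lay below and 8 above, beside 34.9% and 46.8% of all tested genes. In PV-10 tumour 3 the order was the opposite, with 1 below (Ifi35) and 18 above, beside 25.5% and 33.6% of all tested genes. Relative to the PBS mean, the median log2 ratio of the 30 genes was -0.88, -0.26 and 0.36 in PV-10 tumours 1, 2 and 3, while that of tested protein-coding genes was -0.006, -0.083 and -0.003. The labels give nothing that separates the 3 PV-10 tumours, and these counts describe single tumours with no test.

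**Figure D2:**
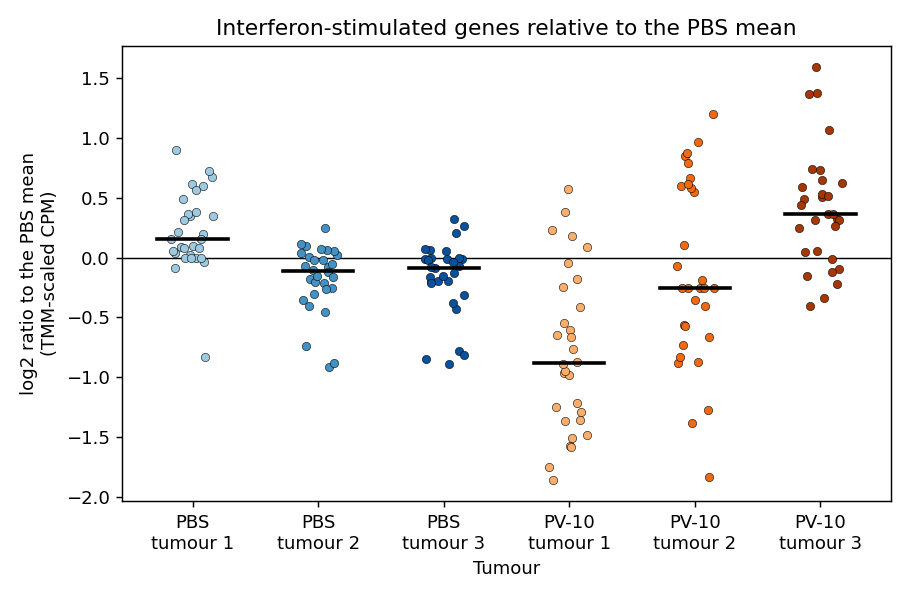
Log2 ratio of each of the 30 genes to its mean over PBS tumours (TMM-scaled CPM), 1 point per gene, with the median of the genes as a bar, for each of the 6 tumours. The bar falls to -0.88 in PV-10 tumour 1 and -0.26 in PV-10 tumour 2 and stands at 0.36 in PV-10 tumour 3.

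Of 435 pairs of the 30 genes, 370 (85.1%) had a positive correlation of log2 CPM over the 6 tumours, with a median of 0.52. Among the 9144 protein-coding genes of like mean CPM 53.1% of pairs were positive, with a median of 0.08. Correlations over 0.8 made up 17.7% and 13.9% of pairs. Xaf1, an interferon-induced gene linked to apoptosis, followed the mean of the other 29 genes most closely (r = 0.982) and Irf7 came next (r = 0.952), while Oas1a did not follow it (r = -0.08). The closest pair was Rtp4 and Bst2 (r = 0.977), and Ifit1 and Ifit3 were at r = 0.970. These values rest on 6 tumours that share depth and length effects, and they are given as a description.

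Transcription factors of the pathway had negative log2 changes in all 3 cases, with 0 called. Stat2, a subunit of ISGF3 (ENSMUSG00000040033.16, mm10 chr10:128270559-128292849), was at 23.8, 24.1 and 23.6 CPM after PBS and at 10.3, 9.83 and 24.7 CPM for PV-10 tumours 1, 2 and 3. PV-10 tumour 3 thus lay above every PBS tumour, and the other two lay well below them. The log2 change was -0.67 (SE 0.37, edgeR adjusted p = 0.256, 95% interval -1.50 to 0.16). Irf7, the factor that amplifies interferon production, was at 22.4, 15.2 and 15.3 CPM after PBS and at 5.92, 12.0 and 22.0 CPM after PV-10 (log2 change -0.41, edgeR adjusted p = 0.553). Irf9, the DNA-binding part of ISGF3, had the same layout as Stat2, with 14.1 to 16.1 CPM after PBS and 8.23, 4.22 and 19.3 CPM after PV-10. On the TPM scale all 3 PV-10 tumours lay below the PBS tumours for Stat2 and Irf9. Without PV-10 tumour 3, edgeR called 7 of the 30 genes lower and 0 higher, where 16.4% of 27510 genes were lower and 25.0% higher. Stat2 was then at -1.24 (edgeR adjusted p = 0.00334) and Irf9 at -1.26 (adjusted p = 0.024). Irf9 shares exons with Rnf31 on the same strand and Irf7 with Phrf1 on the other strand, so their reads may be divided with those genes.

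Among the cytosolic RNA sensors the 3 genes differed in layout. Ddx58, which encodes RIG-I (ENSMUSG00000040296.15, mm10 chr4:40203773-40239828), was at 37.7, 36.4 and 32.4 CPM after PBS and at 18.2, 22.4 and 33.2 CPM after PV-10. PV-10 tumour 3 fell within the PBS range and the other two below it (log2 change -0.53, SE 0.28, edgeR adjusted p = 0.246), and without PV-10 tumour 3 the value was -0.80 (edgeR adjusted p = 0.0183). Ifih1, which encodes the sensor MDA5, was at 15.3 to 17.2 CPM after PBS and 14.5, 13.8 and 23.4 CPM after PV-10 (log2 change 0.07). Dhx58, which encodes the regulatory helicase LGP2, was at 1.89 to 4.21 CPM after PBS and 1.98, 2.55 and 4.73 CPM after PV-10, with PV-10 tumours 1 and 2 inside the PBS range.

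IFIT proteins bind viral RNA that lacks the host's cap methylation. For Ifit1, Ifit3 and Ifit3b the PBS tumours ranged widely among themselves, with PBS tumour 1 the highest of them. Ifit3 was at 11.3, 6.85 and 4.25 CPM in PBS tumours 1, 2 and 3 and at 3.79, 13.4 and 11.7 CPM after PV-10 (log2 change 0.37, SE 0.50, edgeR adjusted p = 0.649). PBS tumour 1 reached the level of PV-10 tumours 2 and 3, and PV-10 tumour 1 was the lowest of all. Ifit1 (ENSMUSG00000034459.8) was also lowest in PV-10 tumour 1, at 19.1, 11.0 and 7.26 CPM after PBS and 4.39, 18.2 and 19.2 CPM after PV-10. Ifit2 ran from 16.8 to 21.9 CPM after PBS and was at 7.92, 15.8 and 19.4 CPM after PV-10 (log2 change -0.39). Ifit3b, a close copy of Ifit3 on the same chromosome, was at 3.55, 1.14 and 1.02 CPM after PBS and 0.516, 3.72 and 1.63 CPM after PV-10, and reads may be divided between the copies. The 95% interval for Ifit3b, -1.84 to 1.92, was the widest of the 30 genes.

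Oligoadenylate synthetases make the messenger that activates RNase L, and the OASL proteins are their relatives. Of this family, 4 of 5 had negative log2 changes of similar size, from -0.69 to -0.60, with 0 called. Oasl2 (ENSMUSG00000029561.17), the most abundant of them, was at 48.1, 36.5 and 41.7 CPM after PBS and at 12.5, 16.1 and 52.4 CPM after PV-10 (log2 change -0.64, SE 0.49, edgeR adjusted p = 0.408). It became the largest negative change of the 30 genes once PV-10 tumour 3 was left out, at -1.55 (edgeR adjusted p = 0.00197). Oas3 was at 5.92, 4.85 and 6.70 CPM after PBS and 2.38, 3.18 and 5.25 CPM after PV-10, so that the groups overlapped by the third PV-10 tumour alone. Oas1a (mm10 chr5:120896256-120907521) went the other way: it was at 8.11, 5.25 and 5.48 CPM after PBS and 9.36, 11.5 and 8.53 CPM after PV-10, with no overlap (log2 change 0.64, SE 0.30, edgeR adjusted p = 0.187). On the TPM scale Oas1a was at 2.76 to 3.32 in PBS and 2.25 to 3.02 in PV-10 tumours, which overlap. Oas1a belongs to a cluster of similar Oas1 copies, which can share reads.

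In TMM-scaled CPM, 3 of the 30 genes had all PV-10 tumours above all PBS tumours (Bst2, Oas1a and Parp9) and 1 had them below (Ifi35), beside 22.0% and 16.8% of all tested genes. In TPM the counts were 0 above and 11 below, beside 5.07% and 49.2% of genes with a mean of at least 1 TPM. The sets differ slightly, because the 30 genes include Oas3 (mean 0.777 TPM, counted as below) and Ifit3b (0.668 TPM, overlapping).

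Bst2, or tetherin, holds budding viruses at the cell surface. It is also a surface marker of plasmacytoid dendritic cells. Bst2 (ENSMUSG00000046718.8, mm10 chr8:71534255-71537456) was at 44.1, 35.4 and 39.5 CPM after PBS and at 51.8, 59.9 and 103 CPM after PV-10. All PV-10 tumours were higher, and the third was the farthest from PBS (log2 change 0.85, SE 0.31, edgeR adjusted p = 0.104, 95% interval 0.15 to 1.55). The TPM values were 50.8, 56.6 and 55.0 in PBS and 34.1, 42.9 and 99.9 in PV-10 tumours, which puts PV-10 tumours 1 and 2 below PBS on that scale. With each library's trend with transcript length removed the log2 change of Bst2 was 0.23 (edgeR adjusted p = 0.71). The summed level of 7 markers of plasmacytoid dendritic cells was 1.81 to 2.60 CPM after PBS and 7.76, 14.7 and 3.11 CPM for PV-10 tumours 1, 2 and 3. The odour and pheromone receptor genes stood at a mean of 0.790, 0.824 and 0.0661 CPM per gene in the same PV-10 tumours. These are values per gene, whereas the marker level is a sum over 7 genes, so they do not compare directly. The part of this background in the marker sum was not tested. Siglech, a defining marker, had 25, 58 and 66 counts in PBS tumours 1, 2 and 3. It had 47, 54 and 0 counts in PV-10 tumours 1, 2 and 3, the last being the tumour with the highest Bst2. The part of these cells in the Bst2 level was not tested.

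Other antiviral effectors were mixed, with 5 of 9 positive and 0 called. Ifi44, an interferon-induced cytoplasmic protein gene, had the largest change of the 30 genes. It was at 8.99, 8.91 and 7.64 CPM after PBS and at 7.18, 14.7 and 25.7 CPM after PV-10 (log2 change 0.90, SE 0.42, edgeR adjusted p = 0.183), with PV-10 tumour 1 below every PBS tumour and the other two above. Rtp4, a chaperone-like gene induced by interferon, was at 20.5 to 25.3 CPM after PBS and 24.2, 34.0 and 58.7 CPM after PV-10. Its log2 change was 0.78 (edgeR adjusted p = 0.159). Ifi35 was the reverse case, nearly constant at 6.93, 6.96 and 6.93 CPM after PBS and at 3.75, 5.80 and 5.24 CPM after PV-10 (log2 change -0.49, SE 0.30, edgeR adjusted p = 0.303), and it was lower in TPM as well, at 4.11 to 5.77 against 1.40 to 2.66. Eif2ak2, which encodes the kinase PKR, was at 36.8 to 56.4 CPM after PBS and 31.1 to 54.5 CPM after PV-10. Xaf1, at 12.0 to 19.5 CPM in PBS, spanned 5.92 to 21.8 CPM after PV-10.

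Rsad2 (viperin) and Cmpk2 lie side by side on chromosome 12 and encode enzymes of nucleotide metabolism with antiviral activity. Rsad2 was at 13.9, 10.3 and 5.51 CPM after PBS and 6.32, 8.30 and 11.8 CPM after PV-10 (log2 change -0.17). Cmpk2 was at 3.31 to 4.16 CPM after PBS and 2.89 to 5.79 CPM after PV-10 (log2 change 0.10). Mx1, an antiviral GTPase gene of which C57BL/6 mice carry a defective allele, was at 5.35, 1.78 and 2.92 CPM after PBS and 2.20, 5.31 and 4.84 CPM after PV-10 (log2 change 0.30). Mx2, the pseudogene row left out of the 30, was at 0.387 to 0.821 CPM after PBS and 1.26 to 1.72 CPM after PV-10 (log2 change 1.19, edgeR adjusted p = 0.377). The mean per odour or pheromone receptor gene was 0.790, 0.824 and 0.0661 CPM for PV-10 tumours 1, 2 and 3 and 0.0218 to 0.0483 CPM after PBS. Mx2 was highest in PV-10 tumour 3, at 1.72 CPM, where that background was lowest of the PV-10 tumours. The part of that background in the Mx2 value was not tested.

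Isg15 is a ubiquitin-like protein that is joined to other proteins, Usp18 removes it and damps receptor signalling, and Trim25 is a ubiquitin ligase that acts on RIG-I. Isg15 (ENSMUSG00000035692.6, mm10 chr4:156199424-156200818) was at 10.9, 3.57 and 5.31 CPM after PBS and at 6.38, 15.1 and 13.8 CPM after PV-10 (log2 change 0.83, SE 0.47, edgeR adjusted p = 0.263). PBS tumour 1 lay between PV-10 tumour 1 and the other two. Without PBS tumour 1 the log2 change was 1.37, again not called. Usp18 was at 1.58 to 3.09 CPM after PBS and 2.25 to 3.49 CPM after PV-10. Trim25 was at 61.9 to 68.9 CPM after PBS and 41.2, 36.8 and 81.2 CPM after PV-10 (log2 change -0.30), and it was at -0.74 without PV-10 tumour 3 (edgeR adjusted p = 0.0131).

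The last group holds ADP-ribosyltransferases and a partner. PARP9 and the ubiquitin ligase DTX3L form a complex that strengthens interferon signalling, and their genes lie head to head on chromosome 16 with exons that overlap by position on opposite strands. Parp9 was at 26.1, 24.9 and 24.5 CPM after PBS and at 28.5, 38.4 and 41.8 CPM after PV-10, with no overlap. Its log2 change was 0.53 (SE 0.25, edgeR adjusted p = 0.191). In TPM the Parp9 groups overlapped, and the PV-10 mean was the lower one (8.46 in PBS and 6.61 in PV-10 tumours). Dtx3l was at 54.5 to 59.9 CPM after PBS and 22.4, 34.5 and 73.6 CPM after PV-10 (log2 change -0.39). Over the 6 tumours this pair hardly correlated (r = 0.012). Parp14, an ADP-ribosyltransferase and the gene with the longest transcript of the 30, at 7417 nucleotides, was at 53.1, 53.6 and 56.7 CPM after PBS and at 19.5, 36.8 and 54.1 CPM after PV-10 (log2 change -0.57, SE 0.36, edgeR adjusted p = 0.313).

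**Figure D3:**
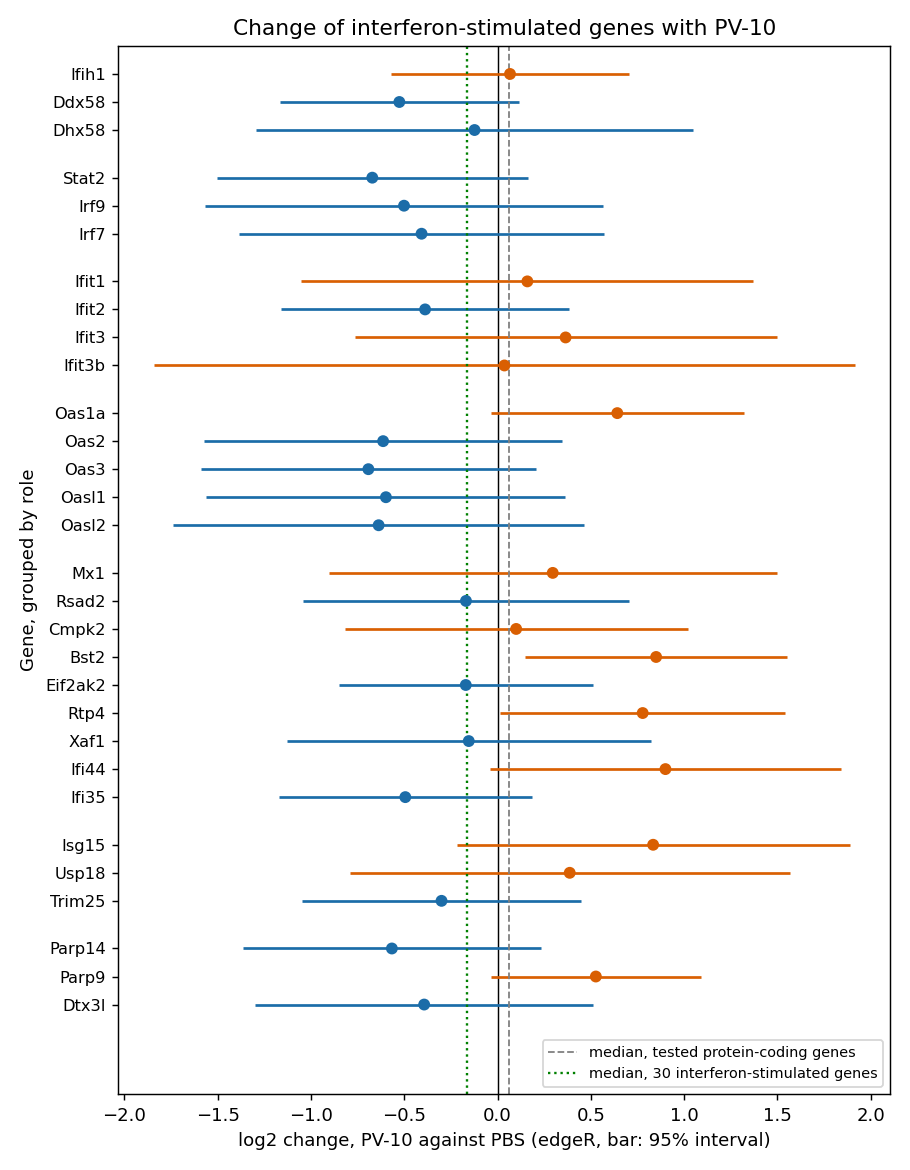
Log2 change of the 30 genes, PV-10 against PBS (edgeR, 3 tumours per group), with bars for the 95% interval of each gene, not adjusted for the number of genes; orange is positive and blue negative. The intervals of Bst2 and Rtp4 alone leave out 0, and the median of the 30 genes (dotted) is -0.16 against 0.06 for tested protein-coding genes (dashed).

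The intervals set what these tumours can show. For 17 genes the 95% interval lay below a doubling (an upper end under 1 on the log2 scale), and for 12 it lay above a halving. It excluded both for 2 genes alone, Ifih1 and Eif2ak2. A larger change was therefore not excluded for the other 28 genes, in at least one direction.

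The sign of the change varied with transcript length. Among the 10 genes with the shortest transcripts (756 to 2412 nucleotides, longest transcript per gene), 7 had a positive log2 change and the median was 0.38. Among the 10 longest (3961 to 7417 nucleotides) 2 were positive, Ifi44 and Ifih1, and the median was -0.35. Protein-coding genes of the same lengths had medians of 0.49 and -0.32. For the 10 in between the median was -0.27, against 0.06 for protein-coding genes of that length. Across the 30 genes the log2 change correlated with log2 length at r = -0.56, and across 16153 tested protein-coding genes at r = -0.13 (both across genes, which are not independent replicates). With the length trend of each library removed, the number of positive changes went from 13 to 20 and the median from -0.16 to 0.16, against 0.36 for all genes, and 0 of 30 were called. With length and GC trends both removed the direction was the opposite, with 4 positive and 26 negative changes and a median of -0.60, against -0.30 for all genes. That setting took length from the longest transcript and not from counts over TPM. It therefore differed from the length setting by more than the GC term.

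**Figure D4:**
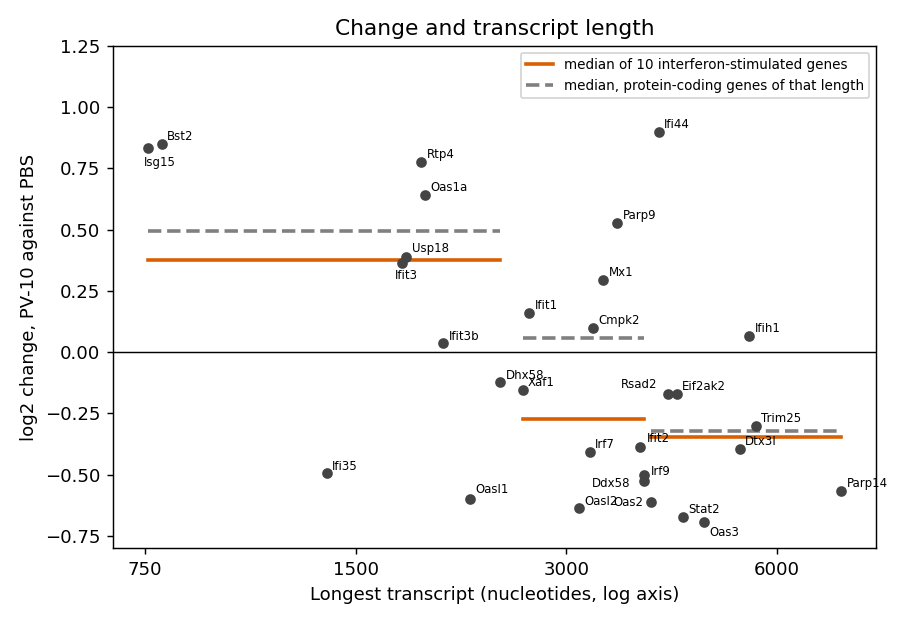
Log2 change (PV-10 against PBS, edgeR) of the 30 genes against the length of their longest transcript (log axis), with the medians of the 10 shortest, 10 middle and 10 longest (orange) and of tested protein-coding genes in the same length ranges (dashed). The orange medians go from 0.38 through -0.27 to -0.35 and the dashed ones from 0.49 through 0.06 to -0.32.

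Upstream, the interferon genes themselves were near the limit of detection. Of 18 type I interferon genes, 4 had 0 counts in all 6 tumours, the highest count of any was 47, and 1 (Ifne) was abundant enough to be tested (log2 change -0.50, edgeR adjusted p = 0.899). Ifnb1 had 8 counts in PV-10 tumour 1, which is 0.138 CPM, and 0 in the other 5 tumours, where a count of 0 allows up to 3 counts, or 0.029 to 0.0821 CPM, by counting error alone. Counts were present for 11, 4 and 3 of the 18 genes in PV-10 tumours 1, 2 and 3 and for 1 to 3 in PBS tumours. Summed over the 18 genes they came to 3.17, 1.83 and 0.490 CPM in PV-10 and 0.0869 to 0.631 CPM after PBS. Per gene, the mean of 0.176 and 0.102 CPM for PV-10 tumours 1 and 2 was below that of the odour and pheromone receptor genes in the same libraries (0.790 and 0.824 CPM), and the part of this background in the interferon counts was not tested. PV-10 tumour 1, with counts in the most interferon genes, had the lowest level of the interferon-stimulated genes. Ifng, the type II interferon gene, was at 0.145 to 0.328 CPM after PBS and 0.861, 0.986 and 1.28 CPM after PV-10 (log2 change 2.17, edgeR adjusted p = 0.270). In PV-10 tumours 1 and 2 that level was near the receptor background of 0.790 and 0.824 CPM per gene, and in PV-10 tumour 3, where Ifng was highest, the background was 0.0661 CPM. In TPM the Ifng groups overlapped, at 0.15 to 0.73 in PBS and 0.34 to 0.75 in PV-10 tumours. The part of this background in the Ifng values was not tested.

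The receptor genes differed little on the CPM scale. Ifnar1 was at 51.0 to 54.9 CPM after PBS and 39.8 to 55.6 CPM after PV-10 (log2 change -0.20, edgeR adjusted p = 0.612), and Ifnar2 at 54.8 to 64.5 and 40.3 to 73.4 CPM (log2 change -0.03, adjusted p = 0.961). In TPM Ifnar2 was lower in all PV-10 tumours (36.15 to 43.9 after PBS, 11.32 to 35.26 after PV-10). For Ifnar1 the TPM groups overlapped, with means of 13.13 and 8.18. Of 12 genes for receptors, kinases and factors, 11 were negative on the log2 scale (median -0.49), and 0 were called. Of tested protein-coding genes 52.1% were positive. Irf1 was at 25.0 to 35.2 CPM after PBS and 22.7 to 47.2 CPM after PV-10. In TMM-scaled CPM, 5 of the 12 lay below PBS in all PV-10 tumours and 0 above, beside 16.8% and 22.0% of all tested genes. Among those 5 the log2 changes were largest for Stat3 (-1.25), Tyk2 (-1.08), Irf2 (-0.88) and Jak1 (-0.88). Their edgeR adjusted p values were 0.0585, 0.103, 0.161 and 0.137.

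Among 11 genes that lead to interferon production, 10 had a negative log2 change (median -0.64). EdgeR called 1 lower and 0 higher, beside 1.92% and 3.17% of all tested genes. The gene called was Traf3, an adaptor between sensors and the kinase TBK1. Traf3 was at 33.7, 42.5 and 41.0 CPM after PBS and 8.52, 11.6 and 18.8 CPM after PV-10. Its log2 change was -1.59 (SE 0.33, edgeR adjusted p = 0.0443, the smallest of all genes tested). With the length trend removed it was -0.84 (edgeR adjusted p = 0.0644). The call was lost on leaving out any tumour but PV-10 tumour 3. In TMM-scaled CPM, 4 of the 11 lay below PBS in all PV-10 tumours and 0 above, beside 16.8% and 22.0% of all tested genes. Besides Traf3 these were Mavs, the mitochondrial adaptor of RIG-I and MDA5 (log2 change -1.14), Ticam1 (-1.05) and Tlr3 (-0.78), none of them called. Of 9 negative regulators, Usp18 included, 0 were called and the median was -0.70. In TMM-scaled CPM 1 of the 9, Adar (log2 change -0.82), was below PBS in all PV-10 tumours, and 1 was above.

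Of 51 other interferon-stimulated genes tested, 31 had a positive log2 change and the median was 0.20. EdgeR called 1 higher and 0 lower, beside 3.17% and 1.92% of all tested genes. Ifi27l2a, a short interferon-induced gene of 463 nucleotides, rose from 3.34, 2.29 and 2.43 CPM in PBS to 19.2, 16.6 and 6.75 CPM after PV-10. The log2 change came to 2.40 (SE 0.42, edgeR adjusted p = 0.0443). This adjusted p equalled that of Traf3 and was the smallest of all genes tested. The groups did not overlap, in TPM either, and PV-10 tumour 3, the highest for most of the 30 genes, was the lowest of the PV-10 tumours here. With the length trend removed the log2 change was 1.23 (edgeR adjusted p = 0.0674), and the call was also lost on leaving out any tumour but PV-10 tumour 3. In TMM-scaled CPM, 11 of the 51 lay above PBS in all PV-10 tumours and 3 below, beside 22.0% and 16.8% of all tested genes. After Ifi27l2a the largest changes among them were Ifit1bl1 (log2 change 2.18, edgeR adjusted p = 0.0699), Phf11b (1.70, adjusted p = 0.0575) and Phf11d (1.38, adjusted p = 0.0536). They were higher in all 3 PV-10 tumours without passing the test.

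Markers of other cells also differed between tumours, and in bulk RNA fewer cells of a type and less RNA per cell cannot be told apart. The summed level of 4 leukocyte markers was 351 to 394 CPM after PBS and 166, 194 and 336 CPM after PV-10, and 2 of the 4 had a positive and 2 a negative log2 change. The lower sum came mainly from Laptm5, at 232 to 277 CPM after PBS and 42.7, 76.2 and 189 CPM after PV-10. Ptprc (CD45) was at 62.2 to 72.7 CPM after PBS and 84.0, 59.7 and 83.0 CPM after PV-10, and Coro1a was higher in every PV-10 tumour, at 26.1 to 28.6 against 19.0 to 23.9 CPM. In TPM the groups overlapped for both, and the PV-10 means were the lower ones. The PBS and PV-10 means were 14.6 and 9.21 TPM for Ptprc and 12.85 and 9.59 TPM for Coro1a. Summed macrophage and monocyte markers (10 genes) were at 1670 to 2560 CPM after PBS and 2200 to 2270 CPM after PV-10, with the highest sum in PBS tumour 1. That tumour also had the highest PBS sums of leukocyte, T cell, epithelial and skeletal muscle markers. Its sums were the lowest of the PBS tumours for conventional dendritic cell, NK cell, B cell, endothelial and fibroblast markers. It had the highest PBS level for 19 of the 30 interferon-stimulated genes. In the macrophage and monocyte list 7 of 10 genes had a negative log2 change. Lyz2 was higher in every PV-10 tumour (337 to 547 CPM after PBS, 752 to 1064 CPM after PV-10), and Csf1r was lower in every one (160 to 257 and 56.4 to 138 CPM). Summed T cell markers were at 11.2 to 29.7 CPM after PBS and 10.5, 25.2 and 59.9 CPM after PV-10, and summed endothelial markers at 185 to 372 and 132, 103 and 335 CPM. Skeletal muscle markers were at 2.17 to 14.6 CPM after PBS and 54.2, 283 and 3.83 CPM after PV-10. No marker on the cell lists was at 0 in all tumours. The part of these differences in the levels of interferon-stimulated genes was not tested.

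**Figure D5:**
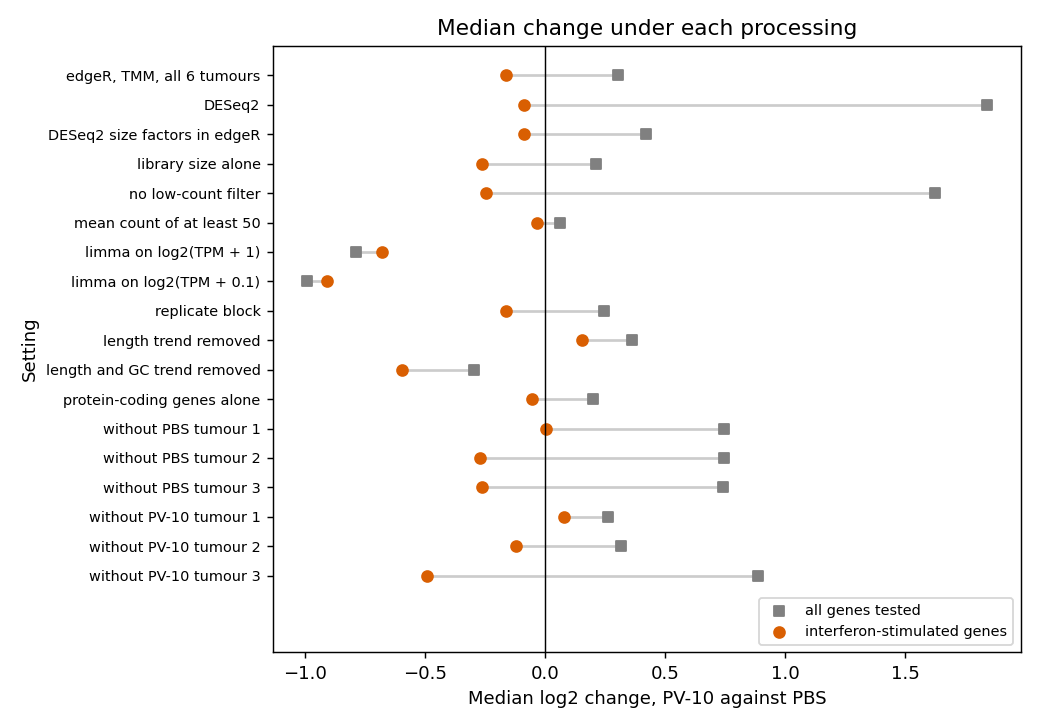
Median log2 change (PV-10 against PBS) of the interferon-stimulated genes (orange) and of all genes tested (grey) under each processing. The orange medians run from -0.91 to 0.16, and they lie above the grey ones in the TPM settings only.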

How the data were processed

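Per the labels' protocols, RNA of each tumour was DNase-treated and made into strand-specific libraries, adapters were found with BBMerge 37.02 and removed with cutadapt 1.8.1, reads were aligned to mm10 with STAR 2.7.7a, and genes were quantified with RSEM 1.3.0 and Gencode vM21. The authors deposited estimated counts as whole numbers, not normalized, and a second deposited table of TPM, scaled to length and to a common total. Columns were matched by the library name in the labels.

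The test was edgeR 4.0.16's quasi-likelihood F test in R 4.3.3 (robust, TMM, default expression filter, Benjamini-Hochberg over 22056 genes), and genes were called at an adjusted p under 0.05. Alternatives used DESeq2 1.42.0, the tool of the authors' own comparison per the labels, and limma 3.58.1. Standard errors were derived from F and the fold change. The script was first tested on simulated data. The length trend was a spline with 5 degrees of freedom on counts over TPM. For length and GC together, such splines were fitted on the longest transcript's length and its GC content. Positions are Gencode vM21 on mm10. RSEM divides reads among similar genes, so copies are uncertain; the strand setting of its counting is not given in the sources used here.

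The members and lists were chosen with earlier results of these data known. Values in every tumour are given for members called or with groups that do not overlap, and for the most abundant and most changed member of each role, with others added. From each pathway list came called genes and up to 4 with groups that do not overlap. Reads carry no molecular identifiers, so the floor of 3 counts covers counting error only.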

Additional observations from a re-analysis of the deposited data

How the results depend on the processing

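With 3 tumours per group and a biological coefficient of variation of 0.777, calls depended on the setting. All genes called higher and lower numbered 5675 and 2270 with DESeq2, 1449 and 1073 with its size factors, 2037 and 2627 without a low-count filter, 1593 and 1112 at a mean count of at least 50, 228 and 4889 with limma on log2(TPM + 1), 214 and 4640 on log2(TPM + 0.1), 980 and 1461 with library size alone, 1549 and 1256 among protein-coding genes (chosen after seeing the data), 1 and 0 with the length trend removed, and 2 and 0 with length and GC trends removed (chosen after seeing the data). Leaving out a tumour gave 1 to 6884 higher and 0 to 4515 lower. Interferon-stimulated genes called higher numbered 3 with DESeq2, 1 (Bst2) at a mean count of at least 50 and 1 (Bst2) among protein-coding genes. Called lower were 5 with limma on log2(TPM + 1) and 5 on log2(TPM + 0.1), in both cases Stat2, Irf9, Ifi35, Trim25 and Parp14, and 7 without PV-10 tumour 3 (Ddx58, Stat2, Irf9, Oasl2, Trim25, Parp14 and Dtx3l), so that leaving out a tumour gave 0 higher and 0 to 7 lower. The median log2 change of the 30 genes was -0.91 on log2(TPM + 0.1), where 28 of the 30 genes entered, -0.68 on log2(TPM + 1), 0.16 with the length trend removed and -0.60 with length and GC removed, and it ran from -0.49 to 0.08 on leaving out a tumour. Against the median of all genes it lay lower in each of these settings except the TPM ones, where it lay 0.11 and 0.08 higher. Over the settings that tested them, 18 for each gene except 16 for Oas3 and Ifit3b, 9 genes kept a negative sign (Ddx58, Stat2, Irf9, Irf7, Oas2, Oas3, Oasl1, Oasl2 and Ifi35), 1 a positive one (Isg15), and 20 took both. Tumours share replicate numbers across groups, but same-numbered tumours' deviations correlated at only -0.0486, 0.0711 and 0.0722, so the numbers were not taken to pair them, and not every tumour correlated best with its own number. With the replicate number as a block, 1054 genes were higher and 1818 lower, and 0 of the 30 genes were called. The causes of these differences were not tested.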
